A study of Mus musculus with 4 samples.

Results

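The subunits of the glutamate and GABA receptors were followed across the cells of the postnatal dorsal ventricular-subventricular zone (V-SVZ) of the mouse, the germinal layer that lines the lateral ventricle. Members were chosen by gene symbol alone: every AMPA, kainate, NMDA and metabotropic glutamate receptor subunit and every GABA-A and GABA-B receptor subunit with at least 10 unique molecular identifiers (UMIs, each standing for 1 captured RNA molecule) summed over the 4 single-cell libraries. The symbol rule matched 44 of 31053 genes in the matrices and 41 passed the minimum. The members closest to that minimum from above were Gabrr1 with 23 UMIs and Gabrq with 24 UMIs, and the 3 symbols left out were Gabrr3 with 3, Grm6 with 2 and Gabra6 with 1 UMI.

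Cells came from wild-type OF1 mice on postnatal day 2 (P2, 1 library), P12 (2 libraries from independent experiments) and P22 (1 library). The dorsal V-SVZ was microdissected, tissue of pooled mice was dissociated with papain and cells were captured with droplet chemistry that tags the RNA at its 3′ end. The labels describe all mice as male, whereas the study's methods state that a female had entered the P2 pool. No mouse carried a transgene or received a treatment, so every contrast described here is between cell classes of the same tissue or between ages.

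AMPA, kainate and NMDA receptors are cation channels opened by glutamate, and the metabotropic (mGlu) receptors act through G proteins. GABA-A receptors are chloride channels assembled from several subunits, and GABA-B receptors are obligate pairs of Gabbr1 and Gabbr2 that signal through inhibitory G proteins. In the subventricular zone, GABA released by neuroblasts is known to depolarize stem cells and to slow their division, and NMDA receptors of migrating neuroblasts are known to support their survival.

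After filtering, the libraries held 4027 (P2), 7004 and 4596 (P12) and 4230 (P22) cells with 2000 to 8000 genes and at most 10% mitochondrial UMIs. The matrices summed to between 65323423 and 106402687 UMIs. Cells were grouped on variable genes from which all receptor and partner genes had been held out, with each group named from its markers. Classes were quiescent neural stem cell-like (qNSC-like, 5460 pallial and 1947 subpallial cells), activated neural stem cell-like (aNSC-like, 1133), transit amplifying progenitor-like (TAP-like, 3444), GABA neuroblast-like (3157), GLU neuroblast-like (444), astrocyte-like (724), ependymal-like (128) or oligodendroglial-like (682). Another 2354 cells stayed in 3 unnamed clusters, and 222 cells of P2 and P22 reached no class. In CPM, the unit in which the UMIs of a gene are scaled to the same total in each class and library, the pallial transcription factors summed to 70.1 to 91.2 in the pallial class, against 2.87 to 16.6 CPM in the subpallial class. The subpallial factors summed to 3.28 to 34.8 CPM in the pallial and 63.4 to 111.6 CPM in the subpallial class. P12 replicate 2 held 6 GABA neuroblast-like, 9 GLU neuroblast-like and 4 oligodendroglial-like cells and was left out of these classes, and ependymal-like cells were measured at P12 only. Both P12 libraries lay apart from the other ages: in pallial qNSC-like cells they were above both P2 and P22 for 41.9% of genes with a mean of at least 5 CPM and below both for 21.8%. Of the 15 members at that level, 8 were above and 0 below. File headers name one version of the counting software at P12 and a later one at P2 and P22, so that age and software version cannot be told apart.

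Levels are given in CPM, relative to all UMIs of the class in 1 library. Because the chemistry counts 3′ ends, they are compared for 1 gene across classes and libraries, and not between genes. Means are given ± SD over 4 libraries, or over 3 for neuroblast-like and oligodendroglial-like and 2 for ependymal-like cells.

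Of the 41 members, 13 had their highest mean in GABA neuroblast-like cells, 13 in oligodendroglial-like cells, 7 in astrocyte-like cells, 3 in GLU neuroblast-like cells, 2 in ependymal-like cells and 1 each in pallial qNSC-like, subpallial qNSC-like and aNSC-like cells. The leading class stood above the second in every library, with no overlap, for 6 of the 13 oligodendroglial, 2 of the 7 astrocyte, 1 of the 13 GABA neuroblast and 1 of the 2 ependymal members, and for none of the others.

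**Figure D1:**
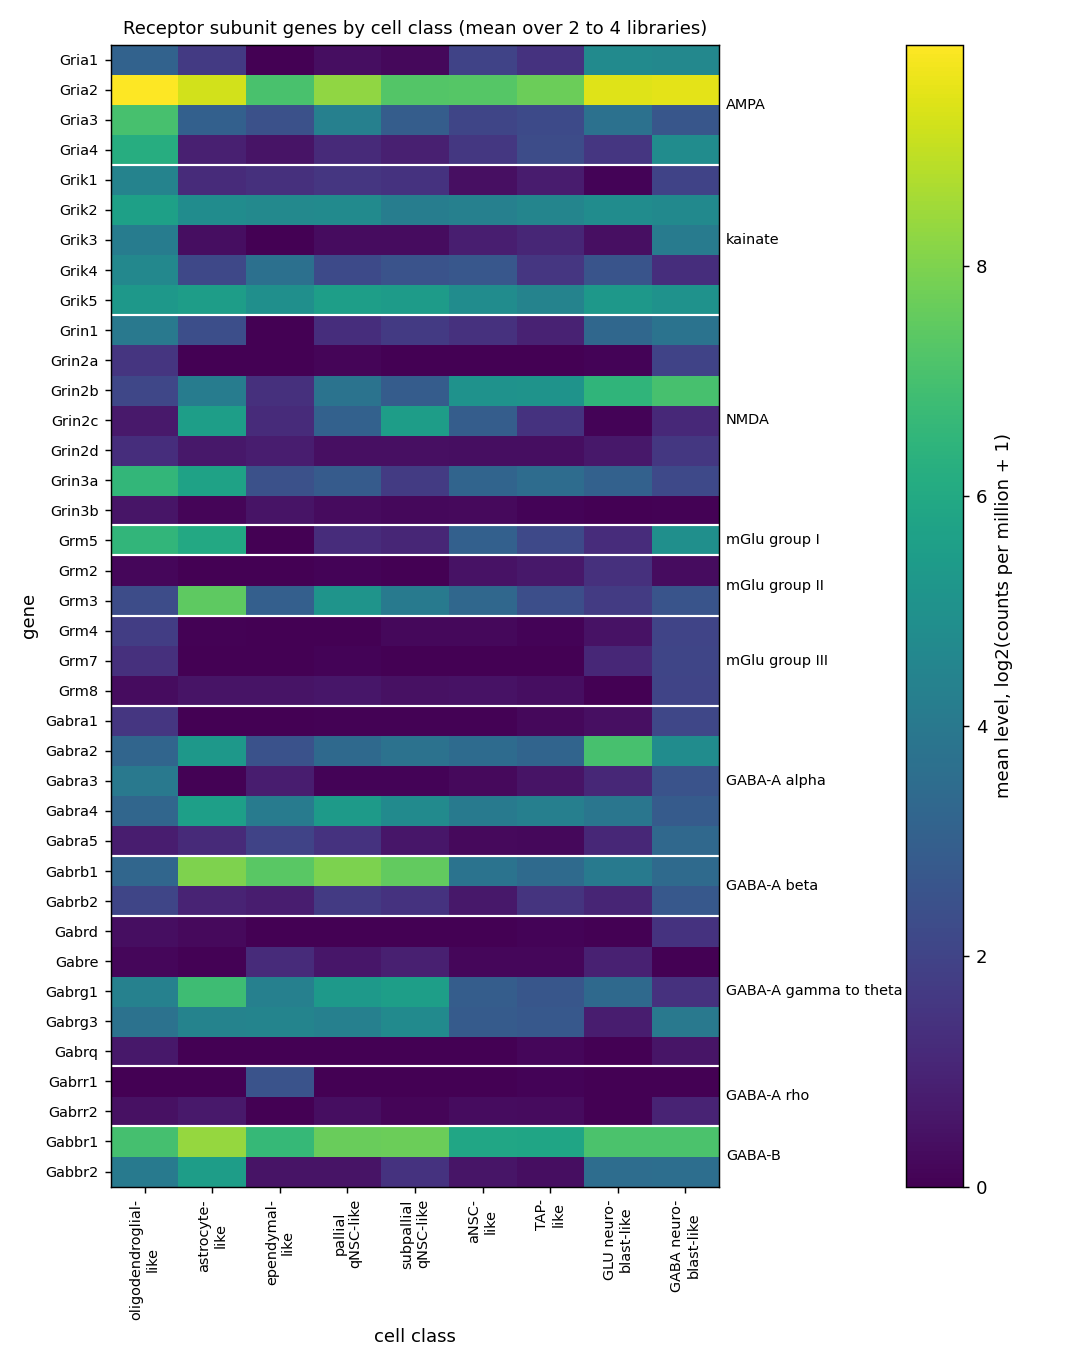
Mean level of the members shown (rows, grouped by receptor family) in each of the 9 classes (columns), as log2 of CPM plus 1. The GABA-A genes Gabrb1, Gabrg1 and Gabra4 are high in qNSC-like and astrocyte-like cells. Most NMDA, AMPA and group III mGlu subunits have their highest mean in neuroblast-like or oligodendroglial-like cells, although the group III means reach only 3.20 CPM.

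Gria2, the AMPA subunit that keeps receptors impermeable to calcium, was detected in each of the 9 classes. It averaged 973 ± 371 CPM in oligodendroglial-like cells, 724 ± 446 CPM in GABA neuroblast-like cells and 702 ± 275 CPM in GLU neuroblast-like cells (SD, n = 3 each), and 609.9 ± 277 CPM in astrocyte-like cells (SD, n = 4). These 4 classes overlapped between libraries. Lower means were found in pallial qNSC-like (313 ± 156 CPM), TAP-like (209 ± 60.9 CPM), aNSC-like (156 ± 36.2 CPM) and subpallial qNSC-like cells (155 ± 76.0 CPM; SD, n = 4 each), and the lowest in ependymal-like cells (133 ± 15.6 CPM, SD, n = 2). Gria3, another AMPA pore subunit, was more restricted, with 132 ± 67.1 CPM in oligodendroglial-like cells and 18.9 ± 9.46 CPM in pallial qNSC-like cells, its second class, without overlap. Gria4 averaged 72.2 ± 23.3 CPM in oligodendroglial-like cells against 27.6 ± 9.87 CPM in GABA neuroblast-like cells (SD, n = 3 each), again without overlap, and 0.442 to 4.01 CPM elsewhere. Gria1 was highest in GLU neuroblast-like (25.7 ± 2.67 CPM) and GABA neuroblast-like cells (24.0 ± 16.2 CPM), which overlapped.

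Among kainate subunits, Grik5, which needs a partner subunit to form a channel, varied least, between 46.5 ± 13.8 CPM in pallial qNSC-like and 20.5 ± 6.23 CPM in TAP-like cells. Grik2, a pore-forming partner, averaged 49.2 ± 8.11 CPM in oligodendroglial-like cells against 27.6 ± 10.4 CPM in GLU neuroblast-like cells (SD, n = 3 each), with no overlap, and 17.4 to 27.5 CPM in the others. Of the NMDA subunits, Grin2b, the GluN2 subunit typical of the immature brain, was highest in GABA neuroblast-like cells at 130.1 ± 66.1 CPM, where it ran from 59.2 to 190.2 CPM between libraries. Grin2c, a GluN2 subunit best known from cerebellar granule cells and astrocytes, averaged 46.8 ± 51.6 CPM in astrocyte-like and 44.5 ± 25.9 CPM in subpallial qNSC-like cells, with overlap, and 0.0825 CPM in GLU neuroblast-like cells. Grin3a, which lowers the calcium flow through NMDA receptors, averaged 95.3 ± 55.2 CPM in oligodendroglial-like and 51.7 ± 47.9 CPM in astrocyte-like cells. The obligatory subunit Grin1 averaged 14.96 ± 5.39 CPM in oligodendroglial-like, 12.7 ± 4.69 CPM in GABA neuroblast-like and 1.43 ± 1.52 CPM in pallial qNSC-like cells, and is named here after its values were seen.

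Gabrb1, a GABA-A β subunit, split the classes. It averaged 256 ± 143 CPM in astrocyte-like, 252 ± 62.3 CPM in pallial qNSC-like, 187 ± 65.9 CPM in subpallial qNSC-like and 167 ± 34.3 CPM in ependymal-like cells, and 8.74 to 15.6 CPM in the other 5 classes. Gabrg1, a γ subunit, averaged 115 ± 26.6 CPM in astrocyte-like cells, above 46.7 ± 11.1 CPM in subpallial qNSC-like cells without overlap. Gabrg3 was highest in subpallial qNSC-like cells (25.8 ± 7.45 CPM), with overlap to ependymal-like cells, its second class (21.6 CPM), and lowest in GLU neuroblast-like cells (0.743 CPM). Of the α subunits, Gabra4 averaged 47.2 ± 12.4 CPM in astrocyte-like and 41.6 ± 2.97 CPM in pallial qNSC-like cells, and Gabra2 averaged 129.8 ± 125 CPM in GLU neuroblast-like cells with overlap to the second class. Gabbr1, the GABA-binding subunit of the GABA-B receptor, was present throughout, with 329 ± 98.8 CPM in astrocyte-like and 55.5 ± 5.46 CPM in TAP-like cells at the ends of the order. Gabbr2, the G protein-coupling subunit, averaged 45.4 ± 25.8 CPM in astrocyte-like cells and at most 1.77 CPM in qNSC-like, aNSC-like, TAP-like and ependymal-like cells.

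Grm3, an mGlu receptor coupled to inhibitory G proteins, averaged 177 ± 29.5 CPM in astrocyte-like cells and stood above 33.9 ± 18.2 CPM in pallial qNSC-like cells without overlap. Grm5, coupled to phospholipase C, averaged 91.2 ± 56.9 CPM in oligodendroglial-like and 62.7 ± 61.7 CPM in astrocyte-like cells and had 0 UMIs in ependymal-like cells, where 3 UMIs would be 4.46 and 2.65 CPM in the P12 libraries. The 13 members with the lowest counts in these classes, among them all 3 group III mGlu receptors and both ρ subunits, held 14 to 221 UMIs each over the 9 classes, and 8 of the 13 were highest in GABA neuroblast-like cells.

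**Figure D2:**
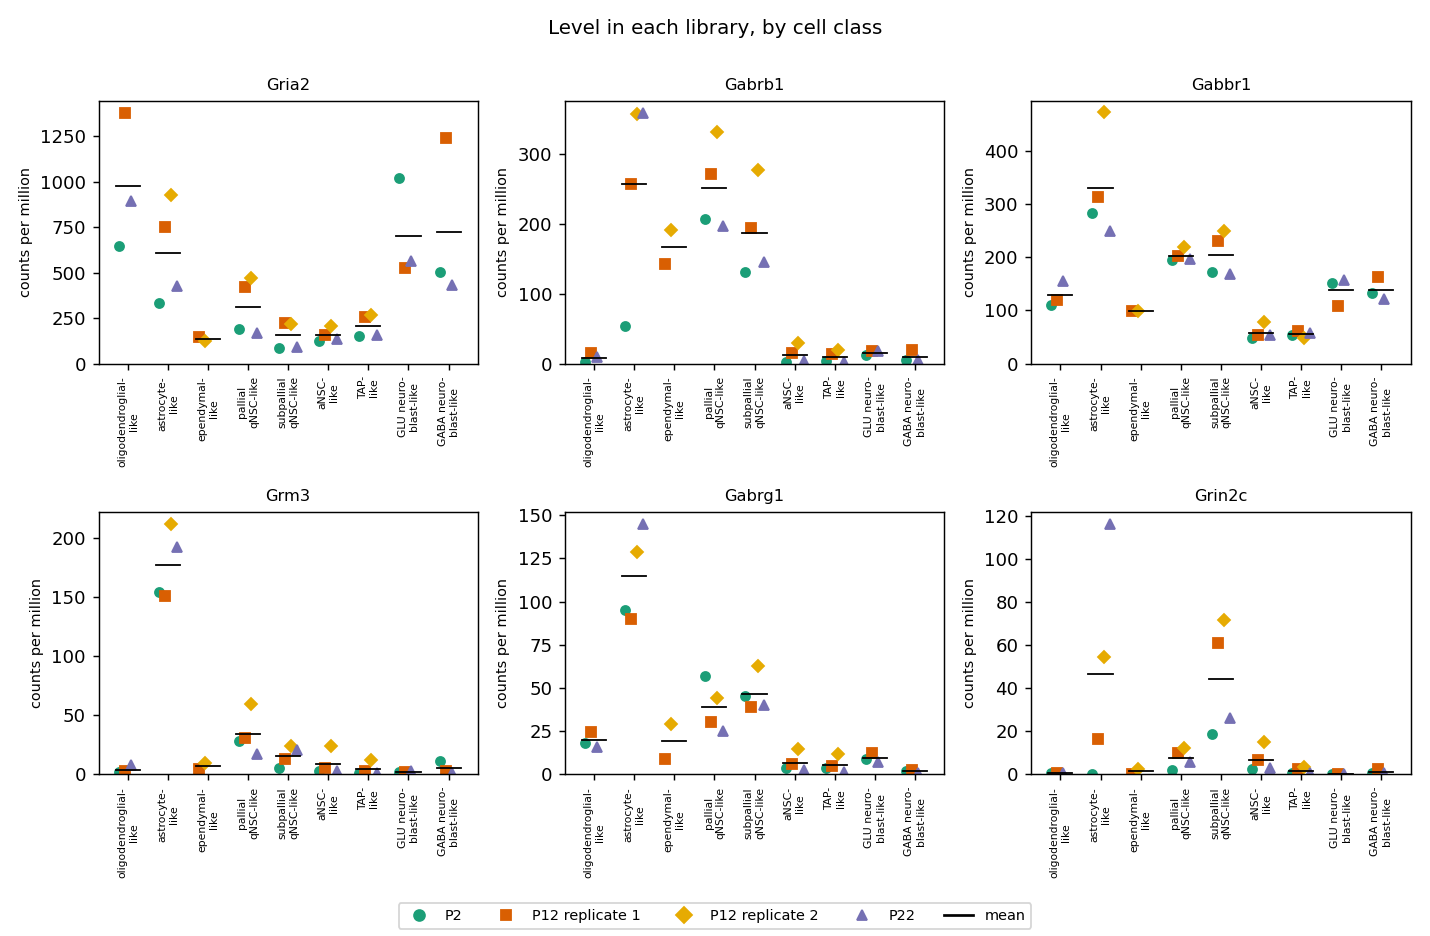
Level in CPM of Gria2, Gabrb1, Gabbr1, Grm3, Gabrg1 and Grin2c in each library (points) of each class, with the mean over libraries as a line. Gabrb1 lies between 8.74 and 15.6 CPM on average in 5 classes and at 167 CPM or more in the other 4, and Grm3 and Gabrg1 peak in astrocyte-like cells.

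Because dissociated cells leak RNA, the microglia-like cells of P22 (75 cells, median 9413 UMIs) were taken as a measure of stray signal, although microglia can carry some of these receptors themselves. With each cell thinned to 5000 UMIs, Gria2 was seen in 8.0% of them (14.7% before thinning), Gabbr1 in 17.3% (28.0%), Grin2b in 1.33% (2.67%) and Gabrb1 in none of the 75 cells, which allows a share of up to 4.8% (exact 95% binomial limit, counting error only). The thinned share for Gria2 was 66.4% in pallial and 41.2% in subpallial qNSC-like cells (81.4% and 64.9% before thinning), 53.9% in TAP-like (85.8%) and 82.8% in GABA neuroblast-like cells (92.0%). For Gabrb1 it was 63.1% in pallial qNSC-like cells (82.8%) and 4.82% in aNSC-like cells (13.9%), and for Grin2b 36.4% in GABA neuroblast-like (53.2%) and 14.9% in TAP-like cells (43.4%). All of these mean shares lay above those of the microglia-like cells, whose median depth was below that of every class named here except pallial qNSC-like cells at P22 (7346 UMIs) and GABA neuroblast-like cells (9003 UMIs in their shallowest library). At P22, the library of the microglia-like cells, the thinned Gabrb1 share in aNSC-like cells was 1.13%. That lies within the microglial limit of 4.8%, so it cannot be told from stray signal there.

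GABA-A subunit genes lie in clusters, and 14 of the 41 members had another GABA-A gene as a neighbour, in 6 groups of adjacent genes by RefSeq positions (GRCm38). On chromosome 5, Gabrg1 and Gabra2 lie between 70751047 and 71095849, and Gabra4 and Gabrb1 lie between 71569734 and 72149572. Gabra4 and Gabrb1 are read from opposite strands and their annotated 5′ ends overlap by 388 bases. Their sequences around the start site are shown because Gabrg1, Gabra4 and Gabrb1 were all lower in aNSC-like, ependymal-like and oligodendroglial-like cells than in the qNSC-like cells that served as reference for all of them, whereas Gabra2 was called lower in ependymal-like cells alone. Each runs 5′ to 3′ on the gene's strand, from 250 bases before the RefSeq start to 50 bases after it, with the transcribed part in capitals.
Gabrg1 (chr5:70842568-70842867, minus strand): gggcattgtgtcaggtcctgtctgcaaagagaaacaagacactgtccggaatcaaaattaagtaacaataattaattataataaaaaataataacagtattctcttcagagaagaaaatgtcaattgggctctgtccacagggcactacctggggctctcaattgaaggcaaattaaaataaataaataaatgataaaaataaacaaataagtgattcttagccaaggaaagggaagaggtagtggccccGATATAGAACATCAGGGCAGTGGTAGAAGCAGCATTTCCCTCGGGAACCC
Gabra2 (chr5:71095800-71096099, minus strand): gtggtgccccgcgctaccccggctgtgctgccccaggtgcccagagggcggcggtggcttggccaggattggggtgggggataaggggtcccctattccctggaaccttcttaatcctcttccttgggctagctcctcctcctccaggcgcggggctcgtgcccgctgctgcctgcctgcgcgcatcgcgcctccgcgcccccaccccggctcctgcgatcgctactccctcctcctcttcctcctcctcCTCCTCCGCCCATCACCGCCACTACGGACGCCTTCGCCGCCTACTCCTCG
Gabra4 (chr5:71658259-71658558, minus strand): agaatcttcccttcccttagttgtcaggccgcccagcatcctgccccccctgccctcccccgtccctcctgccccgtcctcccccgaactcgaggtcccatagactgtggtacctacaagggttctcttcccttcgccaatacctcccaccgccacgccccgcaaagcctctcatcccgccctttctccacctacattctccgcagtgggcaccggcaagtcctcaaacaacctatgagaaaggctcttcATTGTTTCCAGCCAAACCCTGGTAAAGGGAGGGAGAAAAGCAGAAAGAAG
Gabrb1 (chr5:71657671-71657970, plus strand): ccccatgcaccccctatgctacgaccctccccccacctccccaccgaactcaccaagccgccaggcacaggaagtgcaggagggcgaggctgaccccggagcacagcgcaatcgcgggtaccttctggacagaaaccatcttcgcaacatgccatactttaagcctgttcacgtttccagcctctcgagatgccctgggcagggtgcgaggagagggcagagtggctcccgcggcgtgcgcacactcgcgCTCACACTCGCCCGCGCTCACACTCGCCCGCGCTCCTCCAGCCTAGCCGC
The Gabra2 window held 25 CG dinucleotides and 70% G or C, and the Gabrb1 window, 1 of 2 annotated starts, held 25 and 66%. Gabra4 had 12 CG dinucleotides (58.7% G or C) and Gabrg1 only 3 (38.3%), against a median of 7 (52.7%) over 32851 starts. These counts are a description of the letters, and 28 of the 41 members had an entry, too few for a statement on the whole list.

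**Figure D3:**
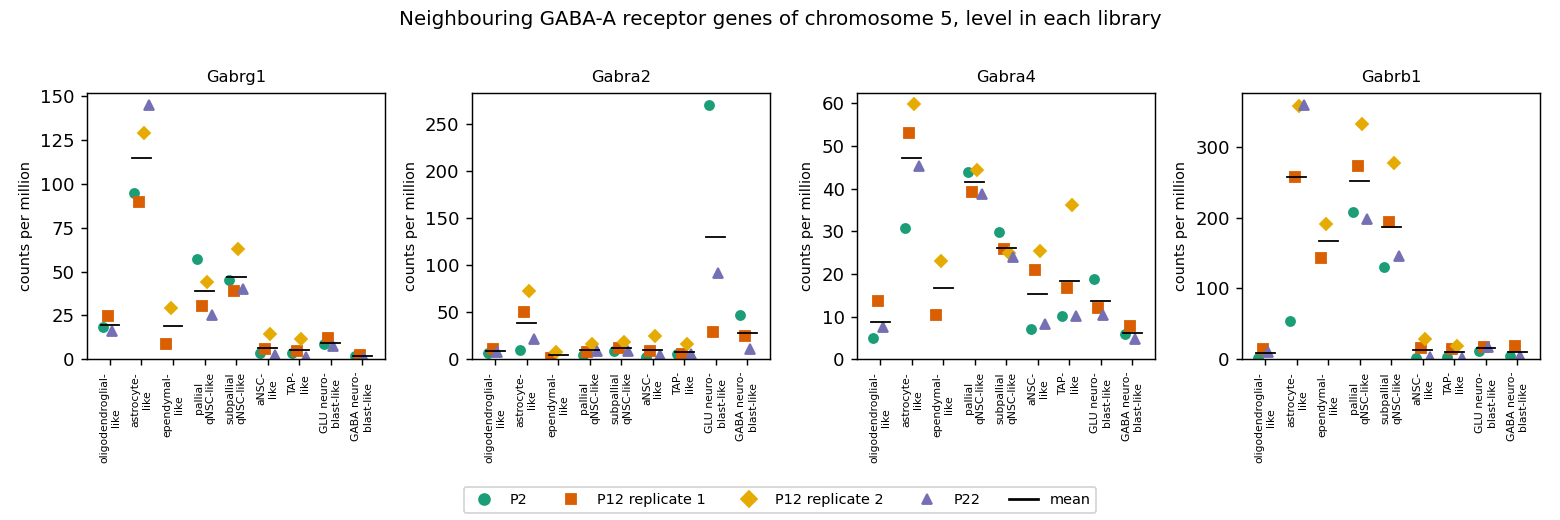
Level in CPM of the 4 neighbouring GABA-A genes of chromosome 5 in each class, with 1 point per library and the mean as a line. Gabrb1, Gabra4 and Gabrg1 are all high in qNSC-like and astrocyte-like cells, and Gabra2 is highest in GLU neuroblast-like cells.

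The first comparison asked whether quiescent stem cells with pallial and with subpallial transcription factors differ in the receptors they carry. These classes rest on marker levels and not on traced origin. In the paper's fate mapping, a growing share of cells labelled in the embryonic pallium carried the subpallial factor Gsx2 at P2 and P12. Of 17 members with enough counts to test, 8 were higher and 1 was lower in pallial qNSC-like cells (edgeR quasi-likelihood test on UMIs summed per library, with library as a block, Benjamini-Hochberg adjusted p under 0.05 over 12382 genes). Over all genes 24.9% were called, 12.4% as higher and 12.5% as lower. The median log2 fold change was 0.46 over the tested members and 0.0096 over all genes. AMPA subunits (2 of 2 tested) were higher, as were 2 of 3 NMDA subunits, while 0 of 2 γ subunits and 0 of 1 GABA-B subunit passed.

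Grin2c, the member with the lowest p, was at 2.11 CPM at P2, 9.71 and 12.4 CPM at P12 and 5.81 CPM at P22 in pallial qNSC-like cells, against 18.6 CPM at P2, 61.0 and 71.8 CPM at P12 and 26.4 CPM at P22 in subpallial qNSC-like cells. The groups did not overlap and Grin2c fell in pallial cells of all 4 libraries (log2 fold change -2.60, SE 0.1, edgeR adjusted p = 2.93e-08). A window at its start is shown because Grin2c alone was called lower here. The window lies on the minus strand of chromosome 11, with 22 CG dinucleotides and 70% G or C, and capitals mark the 50 bases after the start that the RefSeq table gives. The gene as annotated reaches further upstream, to 115267297, so that the lower-case bases next to the capitals lie inside it.
Grin2c (chr11:115267194-115267493, minus strand): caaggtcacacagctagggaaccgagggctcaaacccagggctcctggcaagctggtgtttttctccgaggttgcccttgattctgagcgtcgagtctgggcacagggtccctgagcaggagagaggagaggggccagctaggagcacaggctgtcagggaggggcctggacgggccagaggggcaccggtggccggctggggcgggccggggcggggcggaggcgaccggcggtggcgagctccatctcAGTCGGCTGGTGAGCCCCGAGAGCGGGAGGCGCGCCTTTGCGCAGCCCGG
Gria2 was at 190.2 CPM at P2, 423 and 471 CPM at P12 and 168 CPM at P22 in pallial cells, against 87.6 CPM at P2, 225 and 217 CPM at P12 and 90.6 CPM at P22 in subpallial cells. Gria2 rose, with a log2 fold change of 1.02 (SE 0.065, edgeR adjusted p = 5.18e-07). It was higher in the pallial class within each library, although the classes overlapped across ages because both P12 libraries were high. Gria3 was at 31.4 CPM at P2, 17.2 and 18.7 CPM at P12 and 8.49 CPM at P22 in pallial cells, against 13.0 CPM at P2, 6.59 and 4.82 CPM at P12 and 2.01 CPM at P22 in subpallial cells. Gria3 rose, with a log2 fold change of 1.59 (SE 0.15, edgeR adjusted p = 1.03e-05), and was higher within all 4 libraries. Gabra4, an α subunit of extrasynaptic receptors, was at 43.9 CPM at P2, 39.2 and 44.5 CPM at P12 and 38.9 CPM at P22 in pallial cells, against 29.9 CPM at P2, 25.9 and 25.0 CPM at P12 and 24.1 CPM at P22 in subpallial cells. Gabra4 rose, with a log2 fold change of 0.69 (SE 0.079, edgeR adjusted p = 5.76e-05), with no overlap.

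Grin2b was at 17.2 CPM at P2, 15.5 and 12.6 CPM at P12 and 5.36 CPM at P22 in pallial cells, against 8.43 CPM at P2, 8.42 and 6.402 CPM at P12 and 2.58 CPM at P22 in subpallial cells. Grin2b rose, with a log2 fold change of 0.95 (SE 0.13, edgeR adjusted p = 0.000208). Gabrb1 was at 208 CPM at P2, 272 and 331 CPM at P12 and 197 CPM at P22 in pallial cells, against 131 CPM at P2, 194 and 277 CPM at P12 and 145 CPM at P22 in subpallial cells. Gabrb1 rose, with a log2 fold change of 0.46 (SE 0.074, edgeR adjusted p = 0.000706). Both rose in the pallial class of every library, the NMDA subunit by the larger step. A further 3 calls rested on 3 of 4 libraries, with log2 fold changes of 1.21 for Grm3, 0.62 for Grik2 and 1.46 for Grin3a (edgeR adjusted p = 0.00104, 0.00302 and 0.00867). Among the members that did not pass, Gabbr1 was nearly equal (log2 fold change -0.0094, edgeR adjusted p = 0.958), and Gabra2, Gabrg3 and Gabrg1 had log2 fold changes of -0.42, -0.48 and -0.30. Of 34 partner genes tested, 9 rose and 6 fell, led by the chloride importer Slc12a2 (log2 fold change -2.10) and the AMPA receptor auxiliary subunits Cacng5 (3.02) and Gsg1l (1.97). Without the library block, no member was called (0 higher, 0 lower), and without P2 or P22 the count of lower members was 3 or 2. The calls of Grm3 and Grin3a were also lost with DESeq2, that of Grik2 without P12 replicate 1 and that of Grin3a without P12 replicate 2, where its log2 fold change was 0.65. The 17 ependymal markers, of which 13 to 17 were detected in pallial and 15 to 17 in subpallial libraries, summed to 253.6 to 393.7 CPM in the pallial and 537.8 to 628.6 CPM in the subpallial class, without overlap. Their part in these calls was not tested, and Gria2, Gria3, Grin2b, Gabra4 and Gabrb1 were also lower in ependymal-like than in qNSC-like cells, as given further on. So were Grin2c, which was higher in the subpallial class, and Gabbr1, which was nearly equal between the pallial and subpallial classes. Median UMIs per cell ran from 7346 to 15628.5 in the pallial and from 10553 to 17831 in the subpallial class, and the part of depth was not tested.

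Activation of stem cells was compared as aNSC-like over all qNSC-like cells. Of 21 members tested, 6 were higher and 9 lower in aNSC-like cells, beside 30.6% of all 12715 genes higher and 32.6% lower (63.2% called in all). The members' median log2 fold change was -0.58, against -0.026 for all genes. Both tested γ subunits and the GABA-B subunit Gabbr1 fell, as did 1 of 3 β subunits.

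Gabbr1 was at 47.8 CPM at P2, 54.1 and 78.4 CPM at P12 and 53.0 CPM at P22 in aNSC-like cells, against 183 CPM at P2, 208 and 229 CPM at P12 and 179.5 CPM at P22 in qNSC-like cells. Gabbr1 fell, with a log2 fold change of -1.83 (SE 0.12, edgeR adjusted p = 1.99e-05). Gabrb1 was at 2.50 CPM at P2, 15.8 and 29.1 CPM at P12 and 3.72 CPM at P22 in aNSC-like cells, against 169 CPM at P2, 255 and 314 CPM at P12 and 166 CPM at P22 in qNSC-like cells. Gabrb1 fell, with a log2 fold change of -4.53 (SE 0.39, edgeR adjusted p = 6.90e-05). Gabrg1 was at 3.50 CPM at P2, 5.77 and 14.7 CPM at P12 and 2.72 CPM at P22 in aNSC-like cells, against 51.0 CPM at P2, 32.3 and 50.2 CPM at P12 and 34.0 CPM at P22 in qNSC-like cells. Gabrg1 fell, with a log2 fold change of -2.83 (SE 0.32, edgeR adjusted p = 0.000222). All 3 GABA receptor genes were lower in each aNSC-like library than in any qNSC-like library. Grin2b was at 25.8 CPM at P2, 41.0 and 46.5 CPM at P12 and 16.6 CPM at P22 in aNSC-like cells, against 12.7 CPM at P2, 14.0 and 10.6 CPM at P12 and 3.67 CPM at P22 in qNSC-like cells. Grin2b rose, with a log2 fold change of 1.66 (SE 0.21, edgeR adjusted p = 0.00038), also without overlap.

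Gria3 was at 2.50 CPM at P2, 4.41 and 5.12 CPM at P12 and 0.716 CPM at P22 in aNSC-like cells, against 22.1 CPM at P2, 14.9 and 14.2 CPM at P12 and 4.54 CPM at P22 in qNSC-like cells. Gria3 fell, with a log2 fold change of -2.16 (SE 0.29, edgeR adjusted p = 0.00053), lower within every library although the classes overlapped. Other members that fell among the 10 with the lowest p had log2 fold changes of -2.05 (Grm3), -1.83 (Grin2c), -0.76 (Grik5) and -1.97 (Gabrg3), each in 4 of 4 libraries, and their edgeR adjusted p lay between 0.0006 and 0.00223. The reference joins pallial and subpallial qNSC-like cells, which differ in some members. Grin2c was higher in aNSC-like than in pallial qNSC-like cells at P2 and in P12 replicate 2, and lower in P12 replicate 1 and at P22. Gria3 was slightly higher in aNSC-like than in subpallial qNSC-like cells in P12 replicate 2. The part of this mix in the calls was not tested. Gabra2 (log2 fold change -0.38) and Gria2 (-0.58, edgeR adjusted p = 0.0739) did not pass. Of 35 partner genes tested, 7 rose and 19 fell, led by the scaffold Homer2 (log2 fold change 2.91) and the AMPA receptor auxiliary subunits Gsg1l (-3.94) and Shisa9 (-4.51). The count of higher members was 3 without the cells of highest doublet score, 3 without P12 replicate 1 and 2 when classes were rebuilt on a random share of 0.5 of the UMIs and the rest was tested. A list of 6 markers of mature neurons, of which 4 to 6 were detected in aNSC-like and 5 to 6 in qNSC-like libraries, summed to 35.5 to 58.2 CPM in aNSC-like and 9.35 to 18.6 CPM in qNSC-like cells. The 21 neuroblast markers (18 to 21 detected in aNSC-like and 19 to 21 in qNSC-like libraries) summed to 1258 to 7447 CPM in aNSC-like and 786.8 to 2377 CPM in qNSC-like cells. For the 9 markers of GABA neuroblasts (6 to 9 and 9 detected) the sums were 64.4 to 2692 CPM in aNSC-like and 8.82 to 80.8 CPM in qNSC-like cells, highest at P2 and P22 in aNSC-like cells. The part of these 3 lists in the members that rose or fell was not tested.

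Progression to proliferating progenitors was compared as TAP-like over aNSC-like cells. Of 24 members tested, 8 were higher and 5 lower in TAP-like cells, beside 21.7% and 19.6% of 13049 genes (41.3% called in all). The median log2 fold change was 0.16 for the members and -0.0015 for all genes. The log2 scaling factors of TAP-like libraries differed from those of aNSC-like libraries by -0.155 on average, which raised all log2 fold changes by about as much. Members that rose included 2 of 4 AMPA and 2 of 4 NMDA subunits. The NMDA calls were Grin2b (log2 fold change 0.20), lost in 9 of 11 alternatives, among them DESeq2 and each library left out, and Grin3a (0.55), lost in 4 of 11, among them without P12 replicate 1 and without P22.

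Gria2 was at 154 CPM at P2, 253 and 269 CPM at P12 and 159.6 CPM at P22 in TAP-like cells, against 125 CPM at P2, 159.8 and 206 CPM at P12 and 134 CPM at P22 in aNSC-like cells. Gria2 rose, with a log2 fold change of 0.56 (SE 0.076, edgeR adjusted p = 0.000338). Gria2 was higher within all 4 libraries, but its ranges over libraries overlapped. Gria4 was at 5.31 CPM at P2, 3.15 and 3.18 CPM at P12 and 4.39 CPM at P22 in TAP-like cells, against 2.75 CPM at P2, 1.25 and 2.09 CPM at P12 and 2.01 CPM at P22 in aNSC-like cells. Gria4 rose, with a log2 fold change of 1.19 (SE 0.22, edgeR adjusted p = 0.00208), with no overlap. Grin2c was at 0.503 CPM at P2, 2.56 and 3.29 CPM at P12 and 0.487 CPM at P22 in TAP-like cells, against 2.50 CPM at P2, 6.45 and 15.1 CPM at P12 and 2.72 CPM at P22 in aNSC-like cells. Grin2c fell, with a log2 fold change of -1.76 (SE 0.25, edgeR adjusted p = 0.000389). Grik4, a kainate subunit that like Grik5 needs a partner, was at 1.79 CPM at P2, 3.07 and 2.08 CPM at P12 and 1.02 CPM at P22 in TAP-like cells, against 3.50 CPM at P2, 8.26 and 6.28 CPM at P12 and 4.01 CPM at P22 in aNSC-like cells. Grik4 fell, with a log2 fold change of -1.34 (SE 0.21, edgeR adjusted p = 0.000777), without overlap. Gabrb1 and Gabrg1, low already in aNSC-like cells, did not pass here (log2 fold changes -0.17 and -0.20). Of 38 partner genes tested, 6 rose and 8 fell, led by Dbi (log2 fold change -0.56), whose product binds to GABA-A receptors, and the AMPA receptor auxiliary subunits Shisa8 (-1.26) and Cnih3 (-0.996). None of the 13 calls was made without the library block (0 higher, 0 lower), and without P22 the count was 3 higher and 3 lower. The 9 markers of GABA neuroblasts summed to 253.3 to 2763 CPM in TAP-like and 64.4 to 2692 CPM in aNSC-like cells and were higher in TAP-like cells of each library, and their part was not tested.

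Neuronal differentiation was followed along the GABA lineage. In GABA neuroblast-like over TAP-like cells, with the 3 libraries that held both classes, 34 members were tested, of which 23 were higher and 3 lower, beside 24.2% and 26.2% of 13424 genes (50.4% called in all). Median log2 fold changes were 1.90 for the members and -0.00019 for all genes. The log2 scaling factors were 0.113 higher in the neuroblast-like class, which lowered all log2 fold changes by about as much. Members that rose included 4 of 6 NMDA, 3 of 4 AMPA, 2 of 4 kainate, 3 of 3 group III mGlu, 4 of 5 α and 2 of 2 GABA-B subunits. The low-count filter also admits a gene through a single class. Members almost absent from TAP-like cells were thus tested through neuroblast-like cells alone and could only rise. These counts and the median include them.

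Grin2b was at 141 CPM at P2, 190.2 CPM in P12 replicate 1 and 59.2 CPM at P22 in GABA neuroblast-like cells, against 29.3 CPM at P2, 41.1 CPM in P12 replicate 1 and 16.8 CPM at P22 in TAP-like cells. Grin2b rose, with a log2 fold change of 1.99 (SE 0.12, edgeR adjusted p = 1.62e-05). Grin1, without which no NMDA receptor forms, was at 13.6 CPM at P2, 16.8 CPM in P12 replicate 1 and 7.58 CPM at P22 in GABA neuroblast-like cells, against 1.06 CPM at P2, 1.65 CPM in P12 replicate 1 and 0.443 CPM at P22 in TAP-like cells. Grin1 rose, with a log2 fold change of 3.58 (SE 0.31, edgeR adjusted p = 8.00e-05). Gria1 was at 35.5 CPM at P2, 31.0 CPM in P12 replicate 1 and 5.46 CPM at P22 in GABA neuroblast-like cells, against 1.68 CPM at P2, 1.80 CPM in P12 replicate 1 and 0.399 CPM at P22 in TAP-like cells. Gria1 rose, with a log2 fold change of 4.03 (SE 0.25, edgeR adjusted p = 1.62e-05). All 3 were higher in each neuroblast library than in any TAP-like library. Grm5 was at 57.7 CPM at P2, 22.0 CPM in P12 replicate 1 and 10.8 CPM at P22 in GABA neuroblast-like cells, against 2.07 CPM at P2, 1.53 CPM in P12 replicate 1 and 0.532 CPM at P22 in TAP-like cells. Grm5 rose, with a log2 fold change of 4.28 (SE 0.26, edgeR adjusted p = 1.62e-05). Grik3, a pore-forming kainate subunit, was at 20.7 CPM at P2, 14.2 CPM in P12 replicate 1 and 14.0 CPM at P22 in GABA neuroblast-like cells, against 1.68 CPM at P2, 0.884 CPM in P12 replicate 1 and 1.42 CPM at P22 in TAP-like cells. Grik3 rose, with a log2 fold change of 3.48 (SE 0.26, edgeR adjusted p = 3.94e-05). Gria2 was at 504 CPM at P2, 1237 CPM in P12 replicate 1 and 430.1 CPM at P22 in GABA neuroblast-like cells, against 154 CPM at P2, 253 CPM in P12 replicate 1 and 159.6 CPM at P22 in TAP-like cells. Gria2 rose, with a log2 fold change of 1.70 (SE 0.15, edgeR adjusted p = 9.90e-05). These, too, did not overlap between the classes.

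Both GABA-B subunits rose, with log2 fold changes of 4.82 for Gabbr2 and 1.14 for Gabbr1, as did Gria4, with a log2 fold change of 2.50, each in 3 of 3 libraries (edgeR adjusted p from 0.000102 to 0.000171). A pair of members chosen after their values were seen had almost no UMIs in TAP-like cells and entered the test through the neuroblast-like class. Grin2a, the GluN2 subunit of mature synapses, had 81 UMIs in GABA neuroblast-like cells and 0 in TAP-like cells, at least 60.4-fold higher against a floor of 3 UMIs over the TAP-like cells. Grm7, a presynaptic group III mGlu receptor, had 126 UMIs in GABA neuroblast-like and 2 in TAP-like cells, a ratio of levels of 140.9 (counting interval 38.19 to 1176). Also chosen after their values were seen, members that fell included Gabra4 and Gabrg1, with log2 fold changes of -1.05 and -1.08 (edgeR adjusted p = 0.00505 and 0.0388). The call of Gabra4 was kept in 9 of 9 alternatives, and that of Gabrg1 was lost in 7 of 9, among them DESeq2 and each library left out. In all, 1 member was lower without the library block, without P12 replicate 1 or without P22. Of 40 partner genes tested, 18 rose and 4 fell, led by the AMPA receptor auxiliary subunit Cacng4 (log2 fold change 1.30) and the scaffolds Shank1 (3.07) and Grip1 (3.14). The 6 mature neuron markers summed ran from 108.4 to 159.1 CPM in GABA neuroblast-like and from 30.8 to 40.7 CPM in TAP-like cells, and their part in these counts was not tested.

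GLU neuroblast-like cells were set against GABA neuroblast-like cells to ask whether nascent neurons with glutamatergic and with GABAergic markers differ in receptors. Of 19 members tested, 2 were higher and 3 lower in GLU neuroblast-like cells, beside 5.51% and 4.88% of 10608 genes (10.4% called in all). Members almost absent from GLU neuroblast-like cells, such as Grik3, were tested through GABA neuroblast-like cells alone and could only fall. The counts and the members' median include them. Median log2 fold changes were -0.12 for the members and -0.011 for all genes. The log2 scaling factors were 0.144 higher in the GLU neuroblast-like class, which lowered all log2 fold changes by about as much. Gria2, Gria1 and Grin2b, with log2 fold changes of -0.063, 0.077 and -0.64, did not pass, which at 59 to 314 GLU neuroblast-like cells a library does not show that they were alike.

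Grik3 was at 0.990 CPM at P2, 0 CPM in P12 replicate 1 and 0 CPM at P22 in GLU neuroblast-like cells, against 20.7 CPM at P2, 14.2 CPM in P12 replicate 1 and 14.0 CPM at P22 in GABA neuroblast-like cells. Grik3 fell, with a log2 fold change of -4.91 (SE 0.54, edgeR adjusted p = 0.00119). That value rested on 4 UMIs in GLU neuroblast-like cells, all at P2, a ratio of levels of 0.040 (counting interval 0.011 to 0.102), and was -8.71 without P2. Gria4 was at 2.97 CPM at P2, 0 CPM in P12 replicate 1 and 2.94 CPM at P22 in GLU neuroblast-like cells, against 37.7 CPM at P2, 27.2 CPM in P12 replicate 1 and 18.0 CPM at P22 in GABA neuroblast-like cells. Gria4 fell, with a log2 fold change of -3.91 (SE 0.44, edgeR adjusted p = 0.00144). Grm5 was at 4.21 CPM at P2, 0 CPM in P12 replicate 1 and 0 CPM at P22 in GLU neuroblast-like cells, against 57.7 CPM at P2, 22.0 CPM in P12 replicate 1 and 10.8 CPM at P22 in GABA neuroblast-like cells. Grm5 fell, with a log2 fold change of -4.20 (SE 0.43, edgeR adjusted p = 0.000907). The 17 Grm5 UMIs of GLU neuroblast-like cells were all from P2, so that it was not tested without P2, and its log2 fold change was -7.02 without the cells of highest doublet score. All 3 genes fell without overlap. Gabra2 was at 269.6 CPM at P2, 28.7 CPM in P12 replicate 1 and 91.2 CPM at P22 in GLU neuroblast-like cells, against 47.2 CPM at P2, 24.6 CPM in P12 replicate 1 and 11.3 CPM at P22 in GABA neuroblast-like cells. Gabra2 rose, with a log2 fold change of 2.14 (SE 0.39, edgeR adjusted p = 0.0122). Its chromosome 5 neighbour Gabrg1 was at 8.66 CPM at P2, 12.1 CPM in P12 replicate 1 and 7.35 CPM at P22 in GLU neuroblast-like cells, against 1.66 CPM at P2, 2.59 CPM in P12 replicate 1 and 0.683 CPM at P22 in GABA neuroblast-like cells. Gabrg1 rose, with a log2 fold change of 2.46 (SE 0.45, edgeR adjusted p = 0.0123). Both rose in 3 of 3 libraries, Gabrg1 without overlap. Of 35 partner genes tested, 4 rose and 5 fell, led by the kainate receptor auxiliary subunit Neto1 (log2 fold change -5.02) and the AMPA receptor auxiliary subunits Cnih3 (3.18) and Cacng5 (-1.96). Without P2, P12 replicate 1 or P22 the counts were 1, 3 and 1 higher and 5, 8 and 5 lower, the call of Gabra2 was lost without P22 and without the library block, and that of Grm5 without the library block. The 6 mature neuron markers summed to 178.7 to 247.1 CPM in GLU neuroblast-like and 108.4 to 159.1 CPM in GABA neuroblast-like cells, and their part was not tested.

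A wider pair of classes joined TAP-like and neuroblast-like cells and split them by the transcription factors of the pallial (GLU cells) and subpallial (GABA cells) lineages, leaving out cells with an Olig1 or Olig2 UMI. Of 18 members tested, 2 were higher and 3 lower in GLU cells, beside 4.63% and 3.42% of 11138 genes (8.05% called in all). The median log2 fold change was 0.03 for the members and -0.032 for all genes. The log2 scaling factors were 0.153 higher in GLU cells, which lowered all log2 fold changes by about as much. Gabra4 was at 19.8 CPM at P2, 24.4 and 48.0 CPM at P12 and 14.9 CPM at P22 in GLU cells, against 5.13 CPM at P2, 7.06 and 18.4 CPM at P12 and 6.28 CPM at P22 in GABA cells. Gabra4 rose, with a log2 fold change of 1.501 (SE 0.19, edgeR adjusted p = 0.00578). Gabrb1 was at 8.54 CPM at P2, 25.2 and 25.6 CPM at P12 and 16.7 CPM at P22 in GLU cells, against 3.45 CPM at P2, 7.68 and 12.7 CPM at P12 and 2.91 CPM at P22 in GABA cells. Gabrb1 rose, with a log2 fold change of 1.41 (SE 0.25, edgeR adjusted p = 0.022). Both rose within all 4 libraries, with overlap between them. Gria4 was at 2.05 CPM at P2, 0.365 and 2.73 CPM at P12 and 1.86 CPM at P22 in GLU cells, against 27.8 CPM at P2, 5.68 and 5.66 CPM at P12 and 11.2 CPM at P22 in GABA cells. Gria4 fell, with a log2 fold change of -2.87 (SE 0.50, edgeR adjusted p = 0.0209). Gria4 fell without overlap, and Gabrg3 fell with overlap (log2 fold change -2.52, edgeR adjusted p = 0.0416). Of 34 partner genes tested, 4 rose and 3 fell, with Neto1 (log2 fold change -3.41), Cnih2 (1.45) and Cnih3 (2.95), which code for auxiliary subunits, in the lead. Without P12 replicate 1 these 5 calls were lost (0 higher, 1 other member lower), without P12 replicate 2 the count was 4 higher and 6 lower, without P22 1 and 1, and without P2 2 and 1. Gria4 and Gabrg3 lost their calls without P2, P12 replicate 1 or P22, and Gria4 ran from -3.80 without P12 replicate 2 to -2.17 without P2. Without the library block no member was called (0 higher, 0 lower). The 26 TAP markers, all detected, summed to 3798 to 20840 CPM in GLU and 10800 to 22280 CPM in GABA cells, lower in GLU cells of each library. The 21 neuroblast markers (20 to 21 and 19 to 21 detected) summed to 3716 to 16270 CPM in GLU and 2906 to 17220 CPM in GABA cells. The part of this mix of stages in the calls was not tested.

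**Figure D4:**
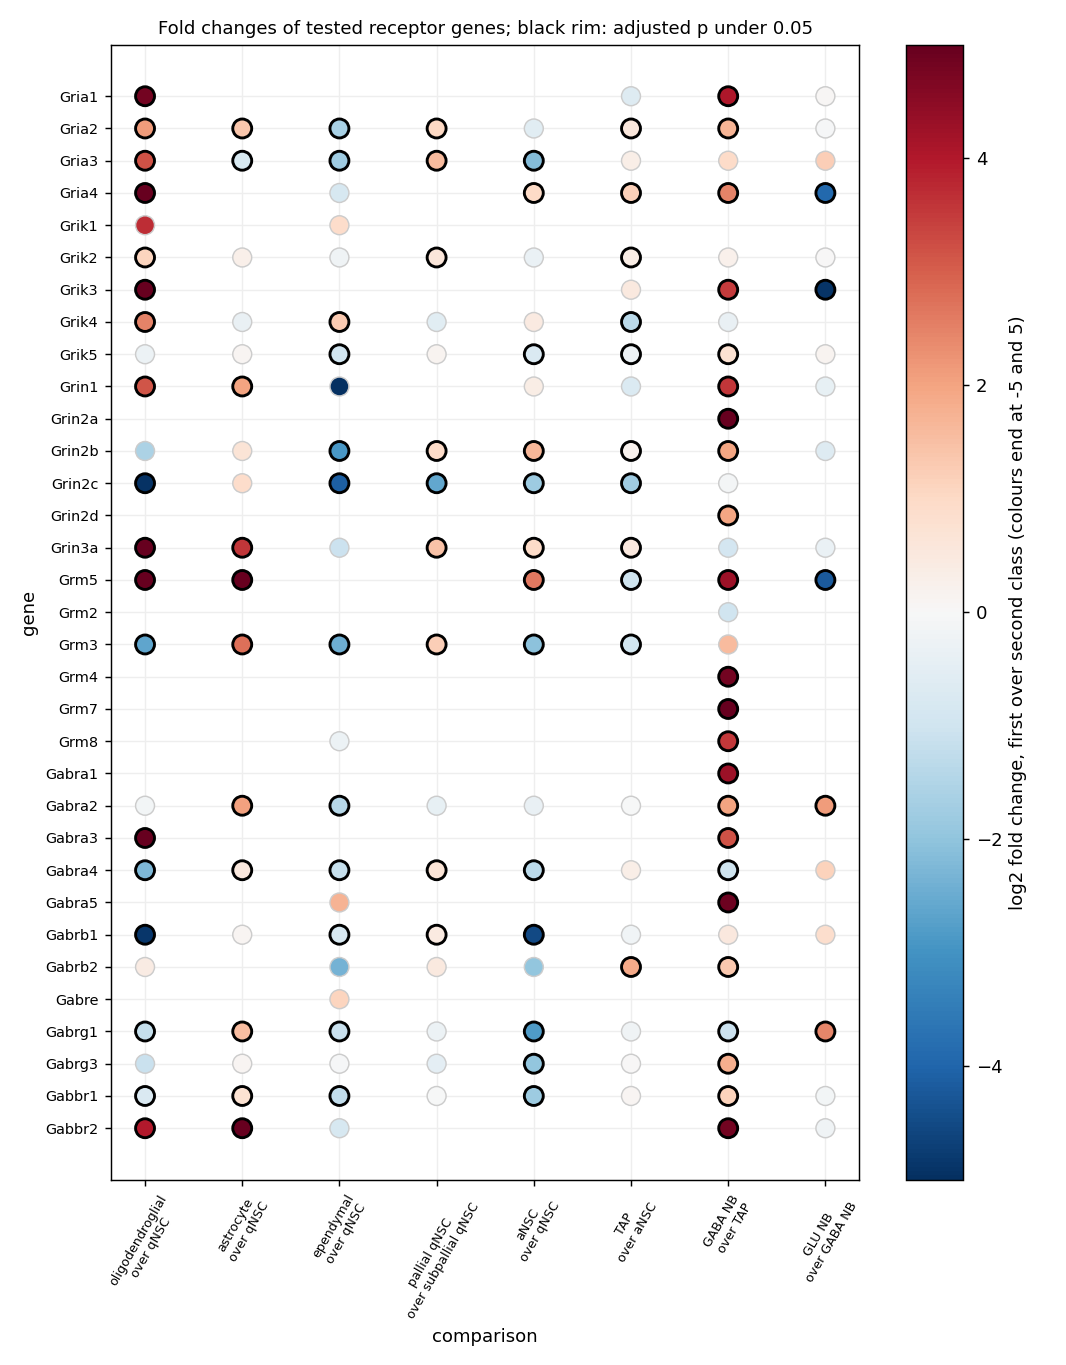
Log2 fold change of the tested members shown (rows) in each comparison of 2 classes (columns, first class over second), as the colour of a dot on a scale that ends at -5 and 5, with a black rim for members past an adjusted p of 0.05. Most dots are red for GABA neuroblast-like over TAP-like cells and blue for ependymal-like over qNSC-like cells.

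Glial classes were each compared with the same qNSC-like cells, so these comparisons share their reference with one another and with that of aNSC-like cells. In astrocyte-like cells 10 members were higher and 1 was lower of 19 tested, beside 14.2% and 14.5% of 12207 genes (28.8% called in all). Median log2 fold changes were 0.75 for the members and -0.0076 for all genes. Grm5 and Gabbr2, low in most qNSC-like libraries, passed the low-count filter through astrocyte-like cells and could hardly be called lower. The counts and the members' median include them. Both GABA-B subunits and the single group I and group II mGlu receptors tested rose, and 0 of 3 kainate subunits passed.

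Grm5 was at 154 CPM at P2, 37.9 and 40.4 CPM at P12 and 18.3 CPM at P22 in astrocyte-like cells, against 3.38 CPM at P2, 0.920 and 0.507 CPM at P12 and 0.175 CPM at P22 in qNSC-like cells. Grm5 rose, with a log2 fold change of 5.75 (SE 0.20, edgeR adjusted p = 9.44e-07). Gabbr2 was at 14.8 CPM at P2, 37.3 and 54.1 CPM at P12 and 75.6 CPM at P22 in astrocyte-like cells, against 1.17 CPM at P2, 0.420 and 1.27 CPM at P12 and 1.40 CPM at P22 in qNSC-like cells. Gabbr2 rose, with a log2 fold change of 5.66 (SE 0.28, edgeR adjusted p = 4.84e-06). Grm3 was at 154 CPM at P2, 151 and 211 CPM at P12 and 192 CPM at P22 in astrocyte-like cells, against 16.5 CPM at P2, 26.9 and 48.3 CPM at P12 and 19.4 CPM at P22 in qNSC-like cells. Grm3 rose, with a log2 fold change of 2.76 (SE 0.19, edgeR adjusted p = 2.04e-05). These 3 genes, all coding for G protein-coupled receptors, were higher in each astrocyte-like library than in any qNSC-like library. Gabrg1 was at 94.9 CPM at P2, 89.97 and 129 CPM at P12 and 145 CPM at P22 in astrocyte-like cells, against 51.0 CPM at P2, 32.3 and 50.2 CPM at P12 and 34.0 CPM at P22 in qNSC-like cells. Gabrg1 rose, with a log2 fold change of 1.53 (SE 0.17, edgeR adjusted p = 0.000243), also without overlap. Grin3a was at 2.47 CPM at P2, 82.4 and 102 CPM at P12 and 19.9 CPM at P22 in astrocyte-like cells, against 1.04 CPM at P2, 4.55 and 11.7 CPM at P12 and 2.10 CPM at P22 in qNSC-like cells. Grin3a rose, with a log2 fold change of 3.57 (SE 0.25, edgeR adjusted p = 2.34e-05). Gria2 was at 334 CPM at P2, 752 and 927 CPM at P12 and 427 CPM at P22 in astrocyte-like cells, against 138 CPM at P2, 379.9 and 389.6 CPM at P12 and 121 CPM at P22 in qNSC-like cells. Gria2 rose, with a log2 fold change of 1.39 (SE 0.15, edgeR adjusted p = 0.000217). Both overlapped between classes while rising within all 4 libraries. Among the rest of the 10 with the lowest p, Gabra2, Gabbr1 and Grin1 rose, with log2 fold changes of 2.04, 0.75 and 2.02, and Gria3 fell, with -0.79 (edgeR adjusted p from 0.000321 to 0.012). Gabrb1 did not pass (log2 fold change 0.12, edgeR adjusted p = 0.833). Of 33 partner genes tested, 11 rose and 8 fell, led by the AMPA receptor auxiliary subunit Cnih2 (log2 fold change -1.70) and the GABA-B receptor auxiliary subunit Kctd12 (2.33). Without the library block 5 members were higher and 0 lower, and the calls of Gria3, Grin1 and Gabra4 were also lost without either P12 library. Grin1 and Gabra4 were lower in astrocyte-like than in qNSC-like cells at P2. Astrocyte markers summed to 2304 to 5273 CPM in astrocyte-like and 984.9 to 1390 CPM in qNSC-like cells.

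In ependymal-like cells, measured in both P12 libraries, 11 members were lower and 1 was higher of 24 tested, beside 16% and 16.2% of 14642 genes (32.2% called in all). Median log2 fold changes in this class were -1.02 for the members and -0.072 for all genes. Gria2 was at 144 and 122 CPM in ependymal-like cells, against 379.9 and 389.6 CPM in qNSC-like cells. Gria2 fell, with a log2 fold change of -1.64 (SE 0.12, edgeR adjusted p = 3.02e-40). Gabbr1 was at 98.0 and 99.1 CPM in ependymal-like cells, against 208 and 229 CPM in qNSC-like cells. Gabbr1 fell, with a log2 fold change of -1.24 (SE 0.13, edgeR adjusted p = 1.95e-20). Both were lower in each ependymal-like library. Grm3 was at 4.46 and 9.73 CPM in ependymal-like cells, against 26.9 and 48.3 CPM in qNSC-like cells. Grm3 fell, with a log2 fold change of -2.45 (SE 0.32, edgeR adjusted p = 4.37e-13). Gabrb1 was at 143 and 191 CPM in ependymal-like cells, against 255 and 314 CPM in qNSC-like cells. Gabrb1 fell, with a log2 fold change of -0.85 (SE 0.12, edgeR adjusted p = 3.22e-12). These, too, fell without overlap, Gabrb1 by the smallest of the 4 steps. Grin2c and Grin2b rested on 3 UMIs each in ependymal-like cells, which gave ratios of levels of 0.064 (counting interval 0.013 to 0.188) and 0.135 (0.028 to 0.395). Grik5, Gabrg1, Gabra4 and Gria3 also fell, with log2 fold changes of -0.99, -1.12, -1.14 and -1.79 (edgeR adjusted p from 1.06e-05 to 0.000659). Of 37 partner genes tested, 10 rose and 13 fell, led by the AMPA receptor auxiliary subunits Shisa8 (log2 fold change 5.29) and Cnih2 (2.06) and the scaffold Shank2 (2.30). With 2 libraries this test had 1 residual degree of freedom and shared its estimate of spread across genes, so that its p-values say little about the spread between mice. Without the library block 0 members were higher. When classes were rebuilt on a random share of the UMIs and the rest was tested, the log2 fold changes were -1.86 for Grin2c, outside its counting interval, and -0.65 for Gria2, both still past the threshold.

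In oligodendroglial-like cells 14 members were higher and 6 lower of 26 tested, beside 16.2% and 19.9% of 12936 genes (36.1% called in all). Members almost absent from qNSC-like cells, such as Gabra3, were tested through oligodendroglial-like cells alone and could only rise. The counts and the members' median include them. Median log2 fold changes here were 2.30 for the members and -0.033 for all genes. The log2 scaling factors were 0.193 higher in the oligodendroglial-like class, which lowered all log2 fold changes by about as much. Grin3a was at 85.0 CPM at P2, 155 CPM in P12 replicate 1 and 45.97 CPM at P22 in oligodendroglial-like cells, against 1.04 CPM at P2, 4.55 CPM in P12 replicate 1 and 2.10 CPM at P22 in qNSC-like cells. Grin3a rose, with a log2 fold change of 5.04 (SE 0.39, edgeR adjusted p = 0.00103). Gria4 was at 45.3 CPM at P2, 86.1 CPM in P12 replicate 1 and 85.2 CPM at P22 in oligodendroglial-like cells, against 1.95 CPM at P2, 0.394 CPM in P12 replicate 1 and 0.698 CPM at P22 in qNSC-like cells. Gria4 rose, with a log2 fold change of 6.19 (SE 0.69, edgeR adjusted p = 0.00236). Gria2 was at 648 CPM at P2, 1377 CPM in P12 replicate 1 and 893 CPM at P22 in oligodendroglial-like cells, against 138 CPM at P2, 379.9 CPM in P12 replicate 1 and 121 CPM at P22 in qNSC-like cells. Gria2 rose, with a log2 fold change of 2.13 (SE 0.27, edgeR adjusted p = 0.00352). All 3 ionotropic subunits rose without overlap. Grin2c was at 0.577 CPM at P2, 0.762 CPM in P12 replicate 1 and 0.507 CPM at P22 in oligodendroglial-like cells, against 10.52 CPM at P2, 20.8 CPM in P12 replicate 1 and 18.3 CPM at P22 in qNSC-like cells. Grin2c fell, with a log2 fold change of -4.96 (SE 0.40, edgeR adjusted p = 0.00113). Gabrb1 was at 1.73 CPM at P2, 14.9 CPM in P12 replicate 1 and 9.62 CPM at P22 in oligodendroglial-like cells, against 169 CPM at P2, 255 CPM in P12 replicate 1 and 166 CPM at P22 in qNSC-like cells. Gabrb1 fell, with a log2 fold change of -4.88 (SE 0.52, edgeR adjusted p = 0.00205). Grin2c and Gabrb1 fell in 3 of 3 libraries. Gabra3, an α subunit, had 191 UMIs in oligodendroglial-like cells and 2 in qNSC-like cells, a ratio of levels of 351.4 (counting interval 95.96 to 2923). Grm5, Gria1 and Grik3 were also among the 10 members with the lowest p and rose in 3 of 3 libraries, with log2 fold changes of 5.98, 4.82 and 6.07 (edgeR adjusted p = 0.00394, 0.00467 and 0.00502). Of 40 partner genes tested, 18 rose and 7 fell, led by Cacng4 (log2 fold change 3.52), Neto1 (8.18) and the AMPA receptor auxiliary subunit Shisa7 (7.48). Without P2, 3 members were lower, and the call of Gabrg1 was lost without P2 and without P22. Without P2 and without P12 replicate 1, the log2 fold changes were 7.29 and 5.34 for Gria4, and 7.36 and 5.11 for Grm5. The 6 mature neuron markers summed to 44.3 to 93.4 CPM in oligodendroglial-like and 9.35 to 18.6 CPM in qNSC-like cells, and their part was not tested.

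Age was examined as a slope over the 4 libraries from P2 to P22 within qNSC-like, aNSC-like and TAP-like cells, given as the log2 change over the whole span. With edgeR's quasi-likelihood test no gene passed an adjusted p of 0.05 in any of the 4 classes (0% called), and 0 of the 22, 18, 20 and 26 members tested in pallial qNSC-like, subpallial qNSC-like, aNSC-like and TAP-like cells were called. At an unadjusted p under 0.05 there were 8, 3, 0 and 0 members in the same order, and DESeq2 called 0. Over all genes 6.04%, 4.9%, 0.426% and 0.628% had such a p. In pallial cells 8 members had such a falling and 0 a rising slope, beside 3.1% and 2.94% of all genes. In subpallial cells 2 had a falling and 1 a rising slope, beside 2.74% and 2.16% of all genes.

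Gria3 was at 31.4 CPM at P2, 17.2 and 18.7 CPM at P12 and 8.49 CPM at P22 in pallial and at 13.0 CPM at P2, 6.59 and 4.82 CPM at P12 and 2.01 CPM at P22 in subpallial qNSC-like cells (slopes -1.93 and -2.74, edgeR adjusted p = 0.514 and 0.508). Grin2b was at 17.2 CPM at P2, 15.5 and 12.6 CPM at P12 and 5.36 CPM at P22 in pallial and at 8.43 CPM at P2, 8.42 and 6.402 CPM at P12 and 2.58 CPM at P22 in subpallial qNSC-like cells (slopes -1.63 and -1.64). Gabrg3 was at 32.2 CPM at P2, 15.5 and 22.2 CPM at P12 and 7.15 CPM at P22 in pallial qNSC-like cells (slope -2.18). In each of these series the lowest value was that of P22, and the slopes of the 8 pallial members with an unadjusted p under 0.05 ran from -1.23 for Gabrg1 to -5.46 for Grm5. Grm5 was at 3.96 CPM at P2, 0.904 and 0.623 CPM at P12 and 0 CPM at P22 in pallial qNSC-like cells. Gria2 and Gabrb1 had both P12 libraries highest and slopes near 0 in pallial qNSC-like cells (-0.20 and -0.096). With P22 or P2 left out, a slope sets 1 library against both P12 libraries, which also differ from it in software version. Counts of members past the threshold from those fits are listed only among the processing alternatives further on, and are not read as calls by age. Median UMIs per cell in the pallial class were 15628.5 at P2, 9598 and 12076.5 at P12 and 7346 at P22, the software version changed with age as given above, and the part of either in these slopes was not tested.

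**Figure D5:**
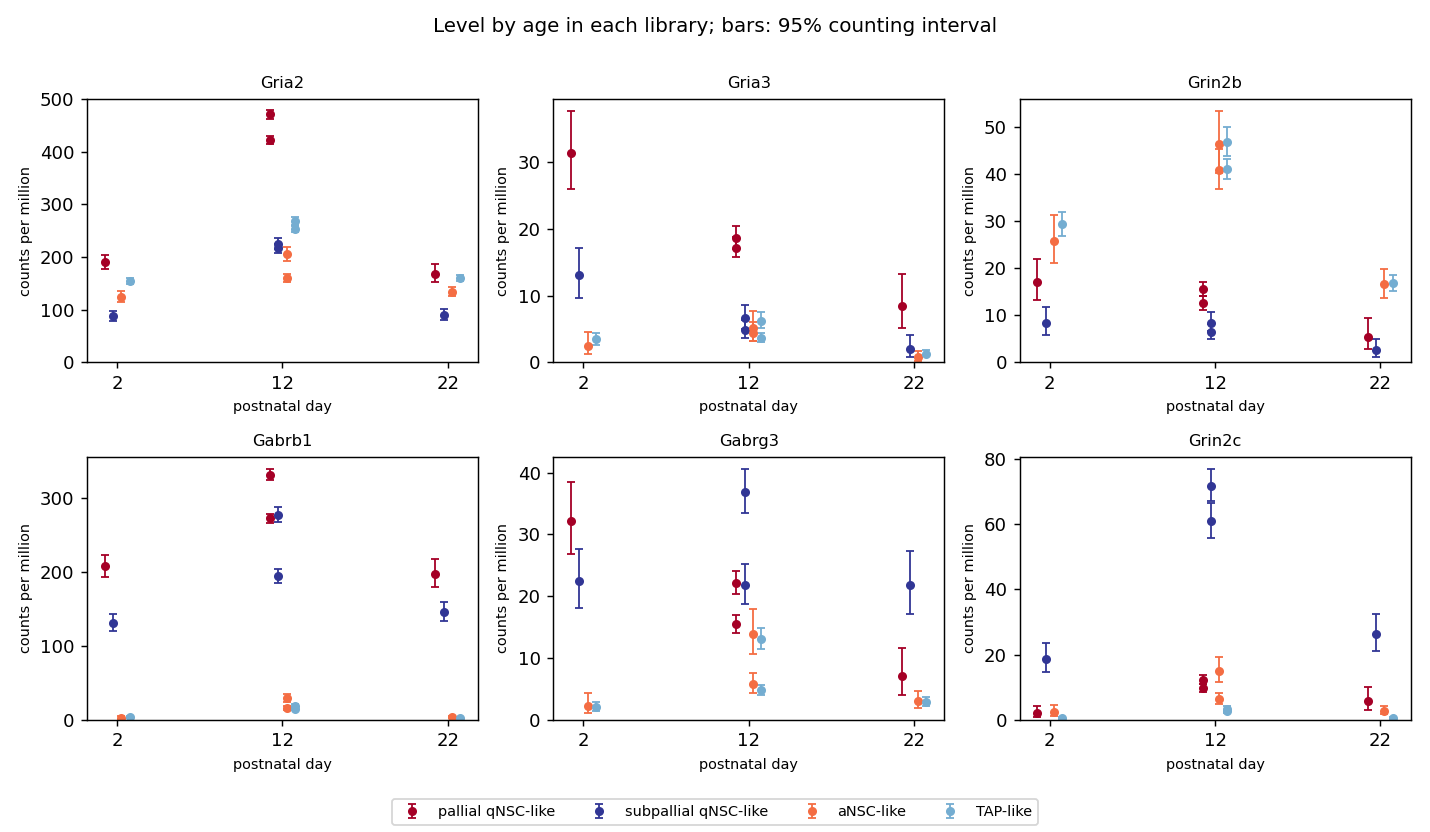
Level in CPM of Gria2, Gria3, Grin2b, Gabrb1, Gabrg3 and Grin2c by postnatal day in pallial and subpallial qNSC-like, aNSC-like and TAP-like cells, with 1 point per library and bars for the 95% counting interval. Gria3 and Grin2b are lowest at P22 in both qNSC-like classes, and Gria2 is highest at P12.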

How the data were processed

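The authors counted UMIs per gene with Cell Ranger against mm10 (GRCm38) and deposited filtered counts, 1 matrix a library. Per the labels the version was 3.1.0, whereas the file headers name 3.1.0 for both P12 matrices and 5.0.1 for P2 and P22. The paper's own comparisons of cell types used cells as replicates and are not used here.

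Cells were kept if they had 2000 to 8000 genes and no more than 10% of UMIs from mitochondrial genes. Both P12 libraries were clustered together with Seurat 5.3.0 (16 clusters) on 1974 variable genes, with 100 receptor, partner and gate genes held out, and clusters were named from marker lists. A cluster took the name of the list with the highest mean score if at least 75% of that list's markers were higher than in the other cells and its median UMI count was at least 0.5 of that of all P12 cells, and otherwise stayed unnamed. P2 and P22 cells took their class by label transfer (score of at least 0.5). Scrublet called 42, 108, 3 and 47 doublets at P2, in P12 replicates 1 and 2 and at P22. They stayed in, and an alternative left out the 5% of cells with the highest score in each library. Between 5 and 12 barcodes were shared by a pair of libraries.

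UMI counts were summed per library and class (at least 20 cells) and tested with edgeR 4.0.16 (quasi-likelihood test, TMM scaling, filterByExpr, Benjamini-Hochberg adjustment over all genes tested, two-sided) under R 4.3.3, with library as a block, because all classes in 1 library share its mice. Classes are thus paired by library, and replicate numbers were not used to pair samples. In a comparison of classes, the low-count filter keeps a gene with enough counts in a single class. A member near 0 in the other class can then be called in that direction only. DESeq2 1.42.0 served as an alternative, beside fits with no replicate block, no low-count filter, a filter of 2500 to 7500 genes, P12 libraries alone, classes rebuilt on a random share of 0.5 of the UMIs, the lineage gates (value of 0.25) in place of clusters, and each library left out in turn. With the block, p-values of class comparisons measure how far a class difference varied between libraries of pooled mice, most of which differ in age. There were 4 libraries, or 3 for neuroblast-like and oligodendroglial-like classes and 2 for ependymal-like cells. For age slopes the p-values measure the spread of 4 libraries around the slope. Statistical scripts were tested on simulated data. Shares of cells were computed with Python 3.11.15, numpy 2.4.6 and scanpy 1.11.5 on all UMIs and after thinning to 5000 UMIs.

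Members, roles, markers and the 45 partner genes were chosen with earlier results of these data known. In each comparison, up to 10 members with the lowest p were named and up to 6 were given in every library. Levels by class were given for the 20 members with the most UMIs, and up to 3 partner genes were named. Some members and partner genes that these rules name are not reported here, although counts and medians over the members include them. The partner gene Pick1, which has 2 identifiers, was left out. Positions and promoter sequences are from RefSeq (GRCm38.p6), matched by symbol: 41 members had a position and 28 a promoter entry.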

Additional observations from a re-analysis of the deposited data

Results flagged for a closer look

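In the comparison of pallial with subpallial qNSC-like cells, 3 members moved one way in both P12 libraries and the other way in a library of another age. Grm3 stood at 17.0 CPM in pallial against 20.9 CPM in subpallial cells at P22, and at 30.8 against 12.8 CPM and 59.7 against 24.0 CPM in the P12 libraries. Grik2 stood at 18.8 CPM in pallial against 20.1 CPM in subpallial cells at P22, and at 24.1 against 14.3 CPM and 35.7 against 23.9 CPM at P12. Grin3a stood at 0.264 CPM in pallial against 1.79 CPM in subpallial cells at P2, and at 4.99 against 2.93 CPM and 15.6 against 3.60 CPM at P12. In the comparison of astrocyte-like with qNSC-like cells the same was seen of 2 members at P2. Grin1 stood at 2.47 CPM in astrocyte-like against 4.42 CPM in qNSC-like cells at P2, and at 5.76 against 0.946 CPM and 5.31 against 1.01 CPM at P12. Gabra4 stood at 30.8 CPM in astrocyte-like against 36.8 CPM in qNSC-like cells at P2, and at 53.0 against 36.4 CPM and 59.8 against 38.2 CPM at P12. With 1 library at P2 and at P22, these differences between ages were not tested.

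Gria2 was also high in cells that no comparison used. In the unnamed cluster 9, found in the P12 libraries only (62 and 210 cells, median 5509.5 UMIs), it stood at 1536 CPM in the lower and 2586 CPM in the higher library, against 1377 CPM in the highest library of any named class. That cluster was led by AY036118, with Gm42418 and Gria2 itself also among its first 10 genes, and 10 of 11 astrocyte markers were higher in it than in the other cells, summing to 1462 to 1669 CPM. It stayed unnamed because of its low UMI count, and the part of RNA quality in its Gria2 level was not tested.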

How the results depend on the processing

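The counts of members past the threshold were recomputed under 252 alternatives, of which 186 stayed within 1.5 times the reported count. Of the 116 called fold changes, 978 of 1113 alternatives kept direction and threshold, 135 kept direction but not the threshold and 0 reversed. Without the replicate block, in which case class differences are set against the spread between ages, 73 calls held and 43 did not: pallial over subpallial qNSC-like cells had 0 higher and 0 lower members, TAP-like over aNSC-like 0 and 0, GLU over GABA cells 0 and 0, astrocyte-like 5 and 0, GLU over GABA neuroblast-like 1 higher, GABA neuroblast-like 1 lower and ependymal-like 0 higher. With no low-count filter the counts were 6 lower (pallial), 14 lower (aNSC-like), 4 higher and 16 lower (GLU neuroblast-like), 2 higher (ependymal-like), 10 lower (GLU cells) and 1 falling slope (subpallial). P12 libraries alone gave 5 lower (pallial), 14 lower (aNSC-like), 4 higher (TAP-like) and 1 lower (GLU cells). Classes rebuilt on a share of the UMIs gave 4 lower (pallial), 2 higher (aNSC-like), 3 lower (TAP-like), 1 higher (GLU neuroblast-like), 0 lower (astrocyte-like) and 0 higher (ependymal-like). Lower pallial members numbered 2 with 2500 to 7500 genes and 2 with lineage gates, higher ependymal-like members 0 with DESeq2, and without the highest doublet scores higher members numbered 3 (aNSC-like) and 1 (GLU cells). The causes of these moves were not tested. Leaving out a library gave 1 to 3 lower (pallial), 3 to 5 higher (aNSC-like), 3 to 8 higher and 3 to 5 lower (TAP-like), 1 to 3 lower (GABA neuroblast-like), 1 to 3 higher and 5 to 8 lower (GLU neuroblast-like), 0 to 1 lower (astrocyte-like), 3 to 6 lower (oligodendroglial-like), 0 to 4 higher and 1 to 6 lower (GLU cells). For age slopes it gave 0 to 3 rising and 0 to 7 falling (pallial), 0 to 3 and 0 to 3 (subpallial), 0 to 6 and 0 to 10 (aNSC-like) and 0 to 1 falling (TAP-like). The 10 falling members in aNSC-like cells came without P2. Without P2 or P22, a slope sets 1 library against both P12 libraries, which also differ from it in software version. Slope counts from those fits therefore cannot be read as changes with age. The ependymal comparison has 2 libraries and no fit with a library left out, and the slope in GABA neuroblast-like cells was not run. Thinning moved 28 of 48 shares of cells.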

Other observations

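Among cells left unnamed, a cluster led by Igf1, Wfikkn2 and Cacng5 carried Grin2b at 37.8 CPM at P2, 45.8 and 37.2 CPM at P12 and 37.3 CPM at P22, against 17.2 CPM at P2, 15.5 and 12.6 CPM at P12 and 5.36 CPM at P22 in pallial qNSC-like cells, the cluster being higher in each library. A cluster led by Olig1, Prss23 and Olig2 carried Grm5 at 20.1 CPM at P2, 19.7 and 63.5 CPM at P12 and 10.2 CPM at P22. Both genes were chosen after their values were seen, and no test was run.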
